A study of Mus musculus with 18 samples.

Results

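The 37 genes described here encode the enzymes of glycolysis and the classic products of the cell's response to low oxygen. They were taken by name from what is known of these pathways, by a rule that cites no measured value, though earlier results of these data were known. They comprise 17 glycolytic enzymes, 4 glucose or lactate transporters, 3 regulators of glycolytic flux, 4 genes of oxygen sensing and 9 other hypoxia targets. All 37 were found on the array through the accession of a probe, and all 37 passed the filter on dim probes, among 17928 genes measured in the thyroid. Together they were read by 57 probes, with 23 genes read by 1 probe and 14 by several; the brightest probe stood for each gene.

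Thyroids came from C57BL/6 mice labelled as 1 month old, each hybridised to 1 single-colour Agilent array. WT denotes wild-type mice and KO2 denotes mice labelled Glis3KO2, a knockout of the zinc finger transcription factor Glis3. The 4 groups were 5 WT and 5 KO2 mice on a normal diet (NIH31) and 4 WT and 4 KO2 mice on a low-iodine diet for 6 days. The deleted part of Glis3, the sex of the mice and the cells in which the deletion acts are not given in the sources used here. Normal-diet arrays lay on slides 1 to 3 and low-iodine arrays on slides 4 and 5, read on another scanner model, so what diet did and what the array set did cannot be told apart. WT and KO2 were balanced on each slide.

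Glycolysis splits glucose into pyruvate and recovers energy without oxygen, and lactate dehydrogenase then turns pyruvate into lactate, which leaves the cell through monocarboxylate transporters. When oxygen falls, prolyl hydroxylases of the Egln family no longer mark the transcription factors HIF-1alpha (Hif1a) and HIF-2alpha (Epas1) for destruction, and these switch on most glycolytic genes as well as genes of mitophagy, vessel growth and collagen modification. Several of these genes also answer to other signals, and some isoenzymes, such as neuronal enolase (Eno2) and aldolase C (Aldoc), are best known from neural and neuroendocrine cells. In the thyroid such cells are the calcitonin-producing C cells.

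The promoters of 4 genes are shown because their genes carry the genotype results: Bnip3 and Eno2 differed between genotypes on both diets, Aldoc rose and Pgk1 fell on the low-iodine diet. Each is the RefSeq window of 300 bases on build GRCm38.p6, from 250 before to 50 after the annotated start, printed 5′ to 3′ on the gene's strand. Capitals mark every ACGTG or GCGTG, the core letters that HIF binds, on either strand (CACGT or CACGC as printed), with overlapping matches merged into 1 stretch.
Bnip3 (chr7:138909457-138909756, minus strand): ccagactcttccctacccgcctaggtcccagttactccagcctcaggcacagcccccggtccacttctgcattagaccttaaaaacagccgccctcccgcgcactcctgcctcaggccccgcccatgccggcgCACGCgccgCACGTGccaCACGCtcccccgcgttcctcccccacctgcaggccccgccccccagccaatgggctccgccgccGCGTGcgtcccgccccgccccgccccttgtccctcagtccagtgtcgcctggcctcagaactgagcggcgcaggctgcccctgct
Eno2 (chr6:124769624-124769923, minus strand): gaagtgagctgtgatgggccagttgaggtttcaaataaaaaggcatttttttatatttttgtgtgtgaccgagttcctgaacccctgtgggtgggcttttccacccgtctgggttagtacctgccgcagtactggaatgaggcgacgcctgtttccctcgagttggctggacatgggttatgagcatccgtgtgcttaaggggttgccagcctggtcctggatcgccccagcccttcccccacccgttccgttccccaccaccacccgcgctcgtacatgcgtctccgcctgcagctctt
Aldoc (chr11:78322823-78323122, plus strand): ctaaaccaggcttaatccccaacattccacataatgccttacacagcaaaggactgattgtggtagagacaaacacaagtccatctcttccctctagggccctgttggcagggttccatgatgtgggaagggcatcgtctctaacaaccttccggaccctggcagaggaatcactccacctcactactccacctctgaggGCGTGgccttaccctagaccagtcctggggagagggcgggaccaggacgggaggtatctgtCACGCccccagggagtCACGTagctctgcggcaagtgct
Pgk1 (chrX:106186850-106187149, plus strand): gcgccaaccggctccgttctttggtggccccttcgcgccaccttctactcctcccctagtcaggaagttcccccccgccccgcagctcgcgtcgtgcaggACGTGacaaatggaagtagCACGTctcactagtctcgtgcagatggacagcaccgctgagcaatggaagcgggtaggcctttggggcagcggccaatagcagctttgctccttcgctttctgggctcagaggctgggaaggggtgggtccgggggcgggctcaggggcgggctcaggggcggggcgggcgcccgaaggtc
The Bnip3 window held 4 such stretches, Aldoc 3, Pgk1 2 and Eno2 0. The second annotated start of Aldoc (chr11:78323948-78324247) held 1. The letters were present at a gene that rose and at one that fell, and absent from the window of a gene that rose on both diets. These 4 genes were picked by their results, and a window of 300 bases says nothing of sequence further away. A link between the letters and the direction of a difference was not tested. Windows were found for 33 of the 37 genes (46 windows), and not for Bnip3l, Epas1, Ndrg1 and Slc2a3. Of these windows 38 (82.6%) held a match, against 43.8% of all 32851 windows of the table, and their median GC content was 62.8% against 52.7%. All 7 windows of other hypoxia targets and 21 of 28 windows of glycolytic enzymes (75%) held at least 1 match. A match is a description of the letters and not a binding site.

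Precision was limited by the number of arrays, with 60.1% to 90.6% of spots well above background on each and correlations of 0.944 to 0.988 between arrays of a group. Levels are log2 of the processed signal relative to the 75th percentile of the same array; differences are KO2 minus WT on that scale with the standard error (SE) of 1 limma fit over 18 arrays, and an adjusted p (Benjamini-Hochberg over all 17928 genes) under 0.05 is called a change. The 1 probe of Glis3 ran from −6.08 to −4.79 in WT and −5.46 to −4.16 in KO2 on the normal diet and from −1.60 to −0.74 and −4.06 to −1.49 on low iodine (adjusted p = 0.732 and 0.0619, limma). It may lie outside the deleted part, in which case it checks nothing about the labels. All 8 follicular cell markers were detected in every group, and their mean level overlapped between genotypes on both diets. In whole glands, fewer cells of a type and less RNA per cell cannot be told apart.

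On the normal diet 2 of the 37 genes differed between the genotypes, and both were higher in KO2: the enolase isoenzyme Eno2 and the mitophagy receptor Bnip3. That is 5.41% of the 37, where 1.39% of all genes were called, 0.513% higher and 0.876% lower. The share of all genes was unstable: it was 3.77% without KO2 replicate 4, 0.686% to 0.892% without WT replicate 2 or 5 or KO2 replicate 1, 3 or 5, and 5.53% with array weights. Eno2, which encodes the enolase that forms phosphoenolpyruvate in neurons and endocrine cells, had log2 levels of −0.96, −0.71, −0.71, −0.45 and −0.75 in WT and 0.12, −0.06, 0.52, −0.03 and 0.34 in KO2. Every KO2 array lay above every WT array. It was 1.86-fold higher (0.90 ± 0.15 SE, n = 5 and 5, limma adjusted p = 0.00962), and the difference was 0.90, 0.96 and 0.83 within slides 1, 2 and 3. Its second probe differed by 0.89.

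Bnip3, whose product sits on the outer mitochondrial membrane and marks mitochondria for removal, stood at 2.98, 2.99, 3.44, 3.29 and 3.00 in WT and at 4.12, 3.83, 4.34, 3.67 and 4.31 in KO2. These arrays did not overlap either, with the lowest KO2 array above the highest WT array. The difference was 1.88-fold (0.91 ± 0.20 SE, limma adjusted p = 0.0353), and 0.85, 0.79 and 1.07 within the slides. Its relative Bnip3l, of the same mitophagy role, differed by −0.14 ± 0.14 (SE, adjusted p = 0.738). Eno2 and Bnip3 were also the only members whose arrays did not overlap on this diet, where 3.52% of all genes had no overlap (1.89% with KO2 higher, 1.63% lower).

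Both calls depended on the other arrays in the fit. With the 10 normal-diet arrays fitted alone neither was called (limma adjusted p = 0.0678 for Eno2 and 0.0831 for Bnip3), and 3 genes passed of all measured. Bnip3 lost its call in 14 of 31 alternatives, including a replicate block (0.0802) and the omission of WT replicate 1, 2, 4 or 5 or KO2 replicate 1, 3 or 5 (0.0513 to 0.107), and Eno2 in 3.

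**Figure D1:**
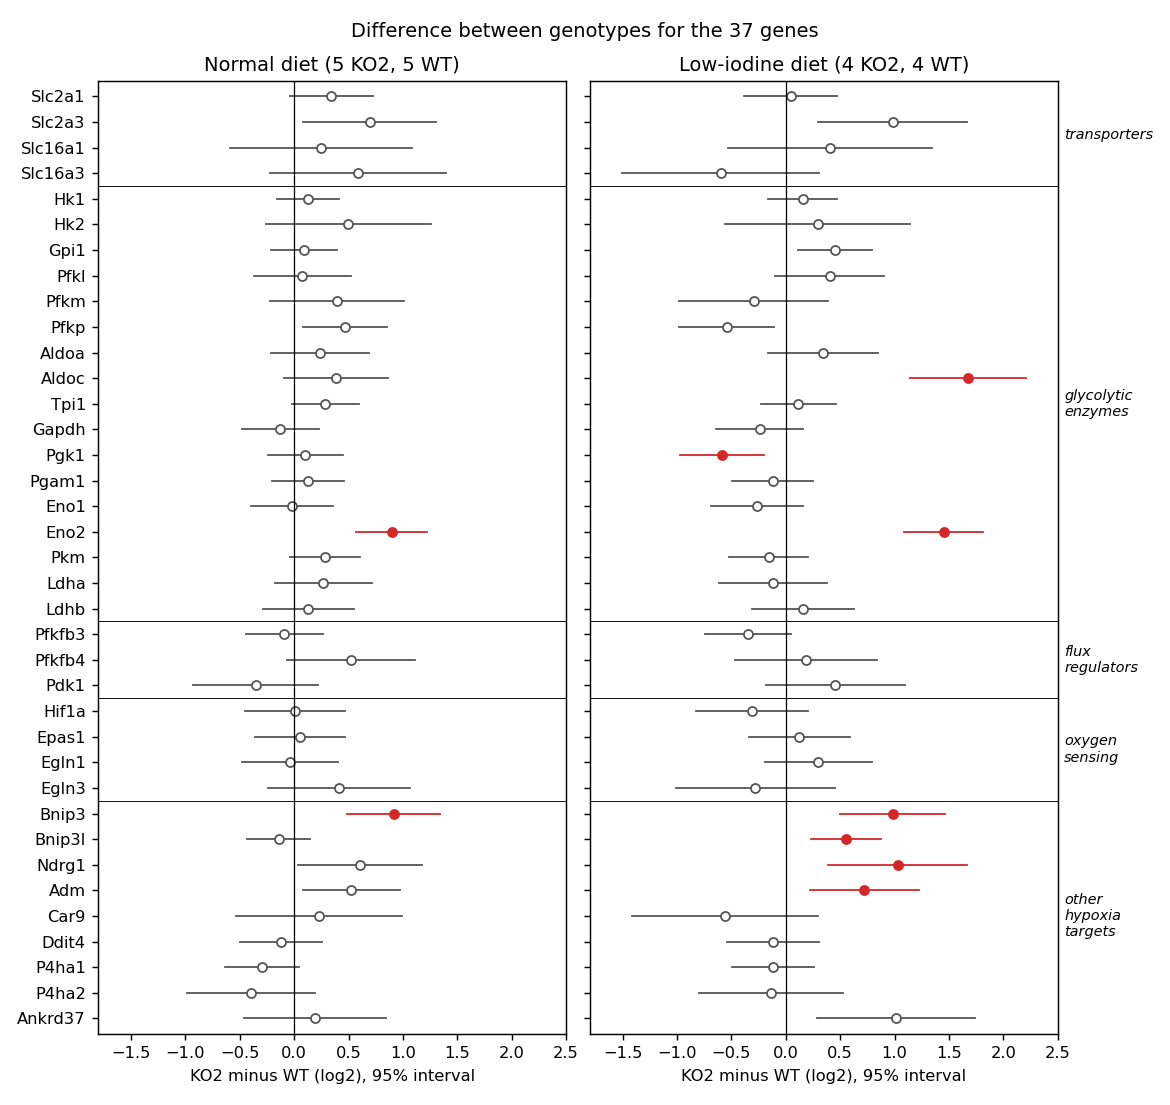
Differences between genotypes for all 37 genes, ordered by role. Each point is KO2 minus WT on the log2 scale (x axis) with its 95% interval, on the normal diet (left) and the low-iodine diet (right); filled red points are genes with an adjusted p under 0.05, 2 on the left and 7 on the right.

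The other 35 genes were not called on the normal diet, although 28 of the 37 differences were above 0, with a median of 0.23 against 0.05 over all genes. The unadjusted limma p was under 0.05 for 6 genes (16.2%), against 13.2% of all genes. Beside Eno2 and Bnip3 these were the platelet phosphofructokinase Pfkp (0.47 ± 0.18 SE, adjusted p = 0.267), the high-affinity glucose transporter Slc2a3 (0.70 ± 0.29 SE, adjusted p = 0.300), the differentiation and stress gene Ndrg1 (0.61 ± 0.27 SE, adjusted p = 0.342) and the vasodilator peptide gene Adm (0.53 ± 0.21 SE, adjusted p = 0.277). The differences of the 16 enzymes not called ran from −0.13 to 0.50, and for 14 of them the 95% interval excluded a 2-fold change in either direction. The exceptions were the hexokinase Hk2 and the muscle phosphofructokinase Pfkm. Over all 35 genes not called, 27 intervals excluded a 2-fold change.

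Under low iodine 7 of the 37 genes (18.9%) changed, 6 higher and 1 lower in KO2, where 15.0% of all genes were called, 7.81% higher and 7.18% lower. The share is close to that of all genes. KO2 arrays lay wholly above the WT arrays for 8 members and wholly below for 3, against 10.6% and 9.10% of all genes (19.7% together). Enzymes supplied 3 of the 7 calls: Aldoc and Eno2 rose and Pgk1 fell. The hypoxia targets outside glycolysis supplied the other 4, Bnip3, Bnip3l, Ndrg1 and Adm, all higher. Without scaling of the arrays the split of members was 2 higher and 2 lower, and that of all genes 255 and 1637 against 1400 and 1287; the median of all genes then lay at −0.29 against −0.02, and at 0.13 with median scaling. These shifts apply to every difference given for this diet.

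Aldoc encodes the aldolase isoenzyme of brain, which cleaves fructose bisphosphate. On low iodine its log2 level was −2.71, −2.04, −2.70 and −3.05 in WT and −1.27, −1.29, −0.55 and −0.66 in KO2. All KO2 arrays lay above the WT arrays. The difference was 3.21-fold (1.68 ± 0.25 SE, n = 4 and 4, limma adjusted p = 3.2e-04), with 1.40 and 1.96 within slides 4 and 5. The same gene on the normal diet differed by 0.38 ± 0.23 (SE, adjusted p = 0.505), where levels of −0.94 to −0.21 in WT and −0.53 to 0.18 in KO2 overlapped. Aldoa, the aldolase of muscle and most tissues, differed by 0.34 ± 0.24 (SE, adjusted p = 0.409) on low iodine.

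Eno2 was at 0.56, −0.08, 0.49 and 0.18 in WT and 1.83, 1.87, 1.71 and 1.55 in KO2 on low iodine. The groups were again separate, and the KO2 arrays were close to each other (SD 0.14). It was 2.73-fold higher (1.45 ± 0.17 SE, limma adjusted p = 4.3e-05), by 1.45 on each of slides 4 and 5, and its second probe differed by 1.55. The ubiquitous enolase Eno1 differed by −0.26 ± 0.20 (SE, adjusted p = 0.449). Aldoc and Eno2 kept their calls in all 31 alternatives on this diet, with differences from 1.03 (normexp background correction) to 2.22 (quantile normalization) for Aldoc and from 1.19 to 1.60 for Eno2.

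Pgk1, phosphoglycerate kinase, makes the first ATP of the pathway. Its levels were 3.94, 3.60, 3.78 and 3.95 in WT and 3.30, 3.13, 3.40 and 3.10 in KO2, with no overlap. KO2 was 1.50-fold lower (−0.58 ± 0.18 SE, limma adjusted p = 0.0389), at −0.57 and −0.60 within the slides and −0.61 by its second probe. The call was lost in 10 of 31 alternatives, among them median scaling (adjusted p = 0.387), a replicate block (0.101) and the omission of any of low-iodine WT replicates 1, 3 and 4 or KO2 replicates 1, 2 and 4 (0.0619 to 0.100). Pgk1 on the normal diet differed by 0.10 ± 0.16 (SE, adjusted p = 0.865).

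**Figure D2:**
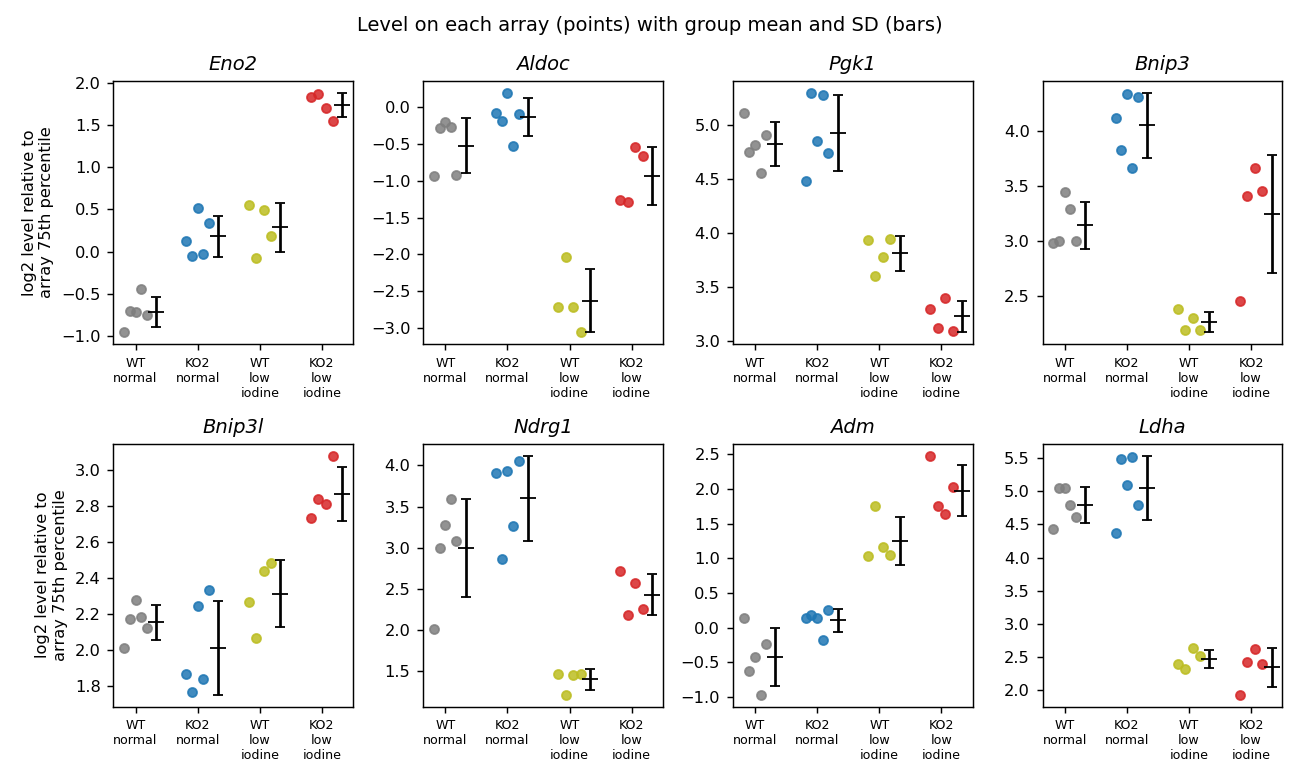
Level on the log2 scale of each array (y axis) for the 7 genes called in a genotype comparison and of Ldha, lactate dehydrogenase A, shown as a gene without a call. Points are single arrays, 5 per group on the normal diet and 4 on low iodine, and bars are group mean and SD; Eno2 arrays of KO2 lie above those of WT on both diets, and Ldha arrays overlap on both.

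Among the 14 enzymes not called on low iodine, differences ran from −0.54 to 0.46. For 13 of them the 95% interval excluded a 2-fold change, with Hk2 the exception. The glucose phosphate isomerase Gpi1 (0.46 ± 0.16 SE, adjusted p = 0.0674) and Pfkp (−0.54 ± 0.21 SE, adjusted p = 0.0892) were nearest to the threshold, and neither overlapped between genotypes. Gpi1 stood at 3.45, 3.18, 3.34 and 3.52 in WT and 4.17, 3.57, 3.59 and 3.98 in KO2, and its slide differences of 0.76 and 0.15 were unequal. The 2 probes of Pfkp differed in sign, at −0.54 and 0.17. From triose phosphate isomerase on, Pgk1 and Eno2 were called and the other enzymes differed less. These were Tpi1 (0.12), Gapdh (−0.24), phosphoglycerate mutase Pgam1 (−0.12), Eno1 (−0.26), pyruvate kinase Pkm (−0.16) and the lactate dehydrogenases Ldha (−0.12) and Ldhb (0.16). Among the entry steps Hk1 differed by 0.16, Hk2 by 0.30, the liver phosphofructokinase Pfkl by 0.40 and Pfkm by −0.30. For Hk1 this held only for the probe used, and all its other probes were lower in KO2, by −0.78 to −0.15. Probes of Gapdh, Eno1, Pgk1 and Ldha may also read processed pseudogenes, which makes their values less certain.

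Of the 9 hypoxia targets outside glycolysis, 4 rose in KO2 on low iodine (44.4%), where 7.81% of all genes were called higher and 15.0% either way. The other 5 did not pass, and 4 of the 9 differences were below 0. The median difference was 0.55, against −0.02 over all genes. Bnip3 stood at 2.38, 2.19, 2.29 and 2.18 in WT and at 2.45, 3.41, 3.66 and 3.46 in KO2. KO2 replicate 1 lay just above the WT arrays and the other 3 far above. The difference was 1.98-fold (0.98 ± 0.23 SE, limma adjusted p = 0.00817), with 0.67 and 1.30 within slides 4 and 5. With the 8 low-iodine arrays fitted alone its adjusted p was 0.0559.

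Bnip3l had levels of 2.27, 2.07, 2.44 and 2.48 in WT and 2.73, 2.84, 2.81 and 3.08 in KO2, which did not overlap. It was 1.47-fold higher (0.55 ± 0.15 SE, limma adjusted p = 0.0214), by 0.74 and 0.37 within the slides and by 0.60 with its second probe. The call was lost in 5 of 31 alternatives, including those without WT replicate 2 (adjusted p = 0.0651) or KO2 replicate 4 (0.0694).

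Ndrg1, a gene of differentiation and cell stress that hypoxia induces, was at 1.47, 1.22, 1.45 and 1.47 in WT and 2.71, 2.19, 2.58 and 2.25 in KO2. Again every KO2 array was higher. The difference was 2.04-fold (1.03 ± 0.30 SE, limma adjusted p = 0.0294), with 1.14 and 0.92 within the slides. Leaving out any low-iodine WT array, or KO2 replicate 1 or 3, took the adjusted p to between 0.0505 and 0.0815, and a replicate block to 0.0578.

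Adm, which encodes adrenomedullin, stood at 1.03, 1.76, 1.17 and 1.05 in WT and 2.48, 1.75, 1.65 and 2.03 in KO2. WT replicate 2 reached into the KO2 range. It was 1.65-fold higher (0.72 ± 0.24 SE, limma adjusted p = 0.0491), and the call was lost in 21 of 31 alternatives, the omission of any of low-iodine WT replicates 1, 3 and 4 or KO2 replicates 1, 2 and 4 among them (0.0516 to 0.156).

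Ankrd37, a small ankyrin repeat gene induced in hypoxia, did not reach the threshold (1.01 ± 0.34 SE, adjusted p = 0.0569). Its levels were −1.77, −0.45, −1.61 and −1.85 in WT and 0.26, −0.74, −0.62 and −0.51 in KO2, with WT replicate 2 inside the KO2 range. Without that array the difference was 1.34 (limma adjusted p = 0.0109). The remaining targets gave no call in either direction. The mTOR inhibitor gene Ddit4 differed by −0.12 ± 0.20 (SE), and the collagen prolyl hydroxylase subunits P4ha1 and P4ha2 by −0.12 ± 0.18 and −0.14 ± 0.31. The second probe of P4ha1 differed by more, at −0.63 on low iodine and −0.56 on the normal diet. Carbonic anhydrase 9 (Car9), which handles acid at the cell surface, was well above background on 2 of 4 WT and 1 of 4 KO2 arrays (−0.56 ± 0.40 SE). Under the normal diet the 9 differences ran from −0.40 for P4ha2 to 0.91 for Bnip3.

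**Figure D3:**
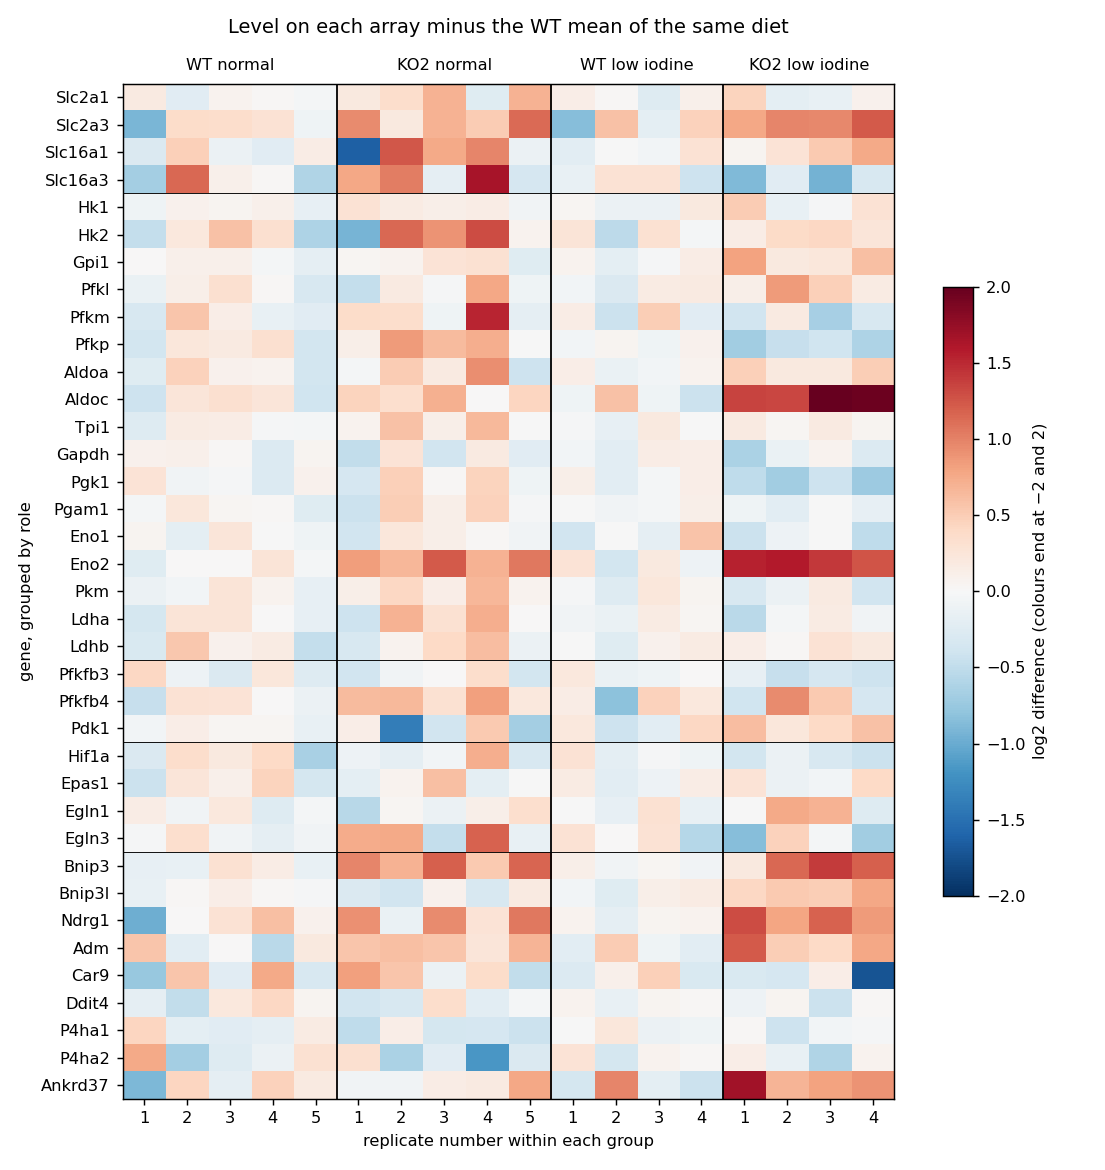
Log2 level of each of the 37 genes (rows, grouped by role) on each of the 18 arrays (columns), minus the WT mean of the same diet. Red is above and blue below that mean, with colours ending at a difference of 2; the rows of Eno2 and Bnip3 are red on all 5 normal-diet KO2 arrays, and those of Aldoc, Eno2 and Ndrg1 on all 4 low-iodine KO2 arrays.

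None of the 11 transporters, flux regulators and oxygen sensors was called in a genotype comparison. Slc2a3 came closest on low iodine, with levels of −4.15, −2.70, −3.48 and −2.82 in WT and −2.52, −2.31, −2.33 and −2.06 in KO2. These did not overlap, and the difference was 0.98 ± 0.32 (SE, limma adjusted p = 0.0503). The call was gained in 10 of 31 alternatives, such as slide as a block (adjusted p = 0.0298), but with normexp background correction the difference was 0.26 (adjusted p = 0.504). Slc2a1, the basal glucose transporter, differed by 0.34 ± 0.18 on the normal diet and 0.05 ± 0.20 on low iodine. The lactate transporters Slc16a1 (0.24 ± 0.40 and 0.40 ± 0.44) and Slc16a3 (0.59 ± 0.38 and −0.60 ± 0.43) had the largest SEs of the 37 genes on both diets, and their intervals did not exclude a 2-fold change on either diet.

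Regulators of flux showed no common direction by the probes used. Pdk1, the kinase that closes pyruvate dehydrogenase, differed by −0.36 ± 0.27 (SE) on the normal diet and 0.46 ± 0.30 on low iodine. Its second probe was higher in KO2 on both, by 0.23 and 0.74. Pfkfb3 and Pfkfb4, which set fructose 2,6-bisphosphate, differed by −0.09 ± 0.17 and 0.52 ± 0.28 on the normal diet and by −0.34 ± 0.19 and 0.18 ± 0.31 on low iodine. The other probes of Pfkfb3 differed by 0.24 and 0.47 on the normal diet and by −0.15 and −0.99 on low iodine.

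None of the 4 genes of oxygen sensing was called. Hif1a differed by 0.01 ± 0.22 (SE) and −0.31 ± 0.24, Epas1 by 0.05 ± 0.20 and 0.12 ± 0.22, and the prolyl hydroxylase Egln1 by −0.04 ± 0.21 and 0.30 ± 0.23 on the normal and low-iodine diets. By the probes used, the intervals of these 3 genes excluded a 2-fold change on both diets. The 2 probes of Egln1 differed in sign on low iodine, at 0.30 and −0.69. Egln3, a prolyl hydroxylase that is itself a HIF target, differed by 0.41 ± 0.31 and −0.28 ± 0.35, with intervals that reached beyond a 2-fold change on both diets. HIF proteins are controlled by their stability, which RNA levels do not measure.

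Averaged over genes, the hypoxia targets were higher on every KO2 array than on any WT array on low iodine. The mean log2 level of the 9 targets in WT was 0.95 ± 0.08 (SD, n = 4), and that of KO2 was 1.32 ± 0.09 (SD, n = 4), a difference of 0.38. The WT arrays ran from 0.85 to 1.04 and the KO2 arrays from 1.26 to 1.46. The mean of the 17 enzymes was 2.58 ± 0.11 (SD, n = 4) and 2.74 ± 0.06 (SD, n = 4), a difference of 0.16, with KO2 arrays from 2.68 and WT arrays up to 2.66. Over the 15 enzymes other than Aldoc and Eno2 it was −0.03, with WT arrays from 2.88 to 3.19 and KO2 arrays from 3.00 to 3.12. This alternative was chosen after the values were seen. It left out the enzymes called higher and kept Pgk1, which was called lower, so the difference had to fall. The target mean rested on part of its list, with 5 of 9 differences above 0 and 4 below. Of the 5 targets not called, Ankrd37 differed by 1.01. The others were Ddit4 (−0.12), P4ha1 (−0.12), P4ha2 (−0.14) and Car9 (−0.56). A target mean without the called genes was not taken, so the −0.03 of the enzymes has no counterpart among the targets. For the normal diet the differences were 0.25 for enzymes and 0.17 for targets, and both means overlapped between genotypes. No test was made of these means, and without scaling the enzyme difference on low iodine was −0.10 and the target difference 0.11.

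**Figure D4:**
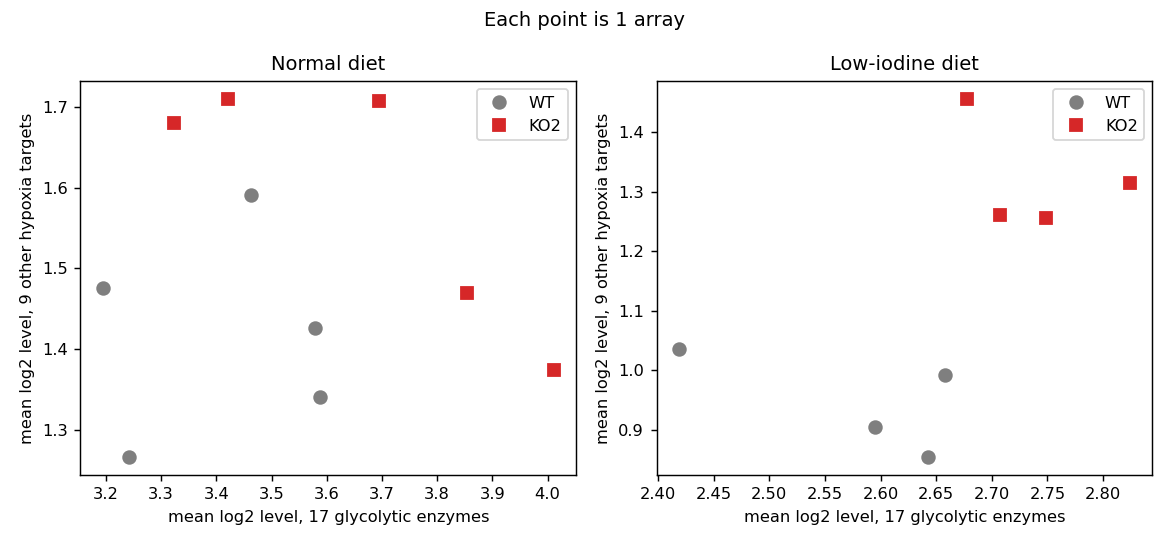
Mean log2 level of the 17 glycolytic enzymes (x axis) and of the 9 other hypoxia targets (y axis), 1 point per array with WT as grey circles and KO2 as red squares. On low iodine (right) all KO2 arrays lie above all WT arrays on the y axis (from 1.26 against up to 1.04); on the normal diet (left) the genotypes overlap on both axes.

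The genotype effects of the 2 diets were compared through the interaction, and 0 of the 37 genes passed (limma; 1.22% of all genes did). Its unadjusted p was under 0.05 for 5 of the 37 (13.5%, against 14.3% of all genes): Aldoc, Pfkp, Bnip3l, Pgk1 and Eno2. The effect on Aldoc was larger on low iodine by 1.30 ± 0.34 (SE, adjusted p = 0.0740), and it passed in 5 alternatives, 1 of them without low-iodine WT replicate 2 (1.49, adjusted p = 0.0359). Pfkp differed by −1.01 ± 0.28 (SE, adjusted p = 0.0883), Bnip3l by 0.70 ± 0.20 (SE, adjusted p = 0.111), Pgk1 by −0.69 ± 0.24 (SE, adjusted p = 0.200) and Eno2 by 0.56 ± 0.23 (SE, adjusted p = 0.279). For Bnip3 the 2 effects were 0.91 and 0.98, an interaction of 0.07 with a 95% interval from −0.58 to 0.72. The test was wide for most members: the interval reached beyond a 2-fold difference for 20 of 37. Over both diets 18 members were higher in KO2 on each, 6 were lower on each and 13 changed sign.

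A further 64 genes of glycolysis, pyruvate use, glycogen and hypoxia were listed beside the 37, and 60 were measured. Under the normal diet 1 of 60 was called (1.67%, against 1.39% of all genes), higher in KO2, and the median difference was 0.17.

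On low iodine 12 of the 60 (20%, against 15.0% of all genes) were called, 6 in each direction, with a median of −0.13. Of the 60 differences 27 were above 0 and 33 below. Among those that rose were the histone demethylase Kdm3a (0.86 ± 0.16 SE, limma adjusted p = 0.00178), the cytokine Mif (0.69 ± 0.13 SE, adjusted p = 0.00183) and Pdp1, the phosphatase that opens pyruvate dehydrogenase (0.83 ± 0.17 SE, adjusted p = 0.00315). The collagen lysyl hydroxylase Plod1 was lower (−1.14 ± 0.22 SE, adjusted p = 0.00234). Also called were Mxi1 and Rora, higher, and Slc16a7, Fbp2, Bsg and Pgm2, lower. Vegfa, the vessel growth factor often read as a hypoxia target, differed by 0.43 ± 0.23 (SE, adjusted p = 0.441) on the normal diet and 0.40 ± 0.25 (SE, adjusted p = 0.346) on low iodine.

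Markers of other cell types moved with some of these results. Among 5 C cell markers, Calca (1.20 ± 0.19 SE, limma adjusted p = 5.75e-04) and Scg2 (1.37 ± 0.33 SE, adjusted p = 0.0110) were higher in KO2 on low iodine, where Eno2 and Aldoc rose. The mean of the 5 ran from 1.11 to 1.45 in WT and from 1.54 to 2.09 in KO2. All 5 were detected in every group. With normal food 0 of 5 passed, Calca differed by 0.11 ± 0.17 (SE), and the mean ran from 2.31 to 2.79 in WT and 1.59 to 2.88 in KO2, while Eno2 was higher there too. Their part in the low-iodine results was not tested.

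Of 7 endothelial markers 4 were lower in KO2 on low iodine (mean of the list 1.36 to 1.50 in WT and 0.60 to 0.78 in KO2), while Cldn5 differed by 0.79 (adjusted p = 0.0550), and 0 of 7 were called on the normal diet. Mitosis genes were lower on both (9 and 10 of 10). On the normal diet, where Eno2 and Bnip3 were called, 4 of 7 thymic epithelium markers were lower in KO2 (Psmb11, Prss16, Ccl25 and Cd83, by −5.19 to −2.04), with a list mean of −1.80 to 1.85 in WT and −2.63 to −0.23 in KO2, and 0 of 7 were called on low iodine. Of 5 fibroblast markers Col14a1 was lower on both diets and Dcn higher on low iodine, where 2 of 5 airway markers and 1 of 5 erythroid markers were also lower. White fat markers gave 0 calls of 5 on either diet, but their low-iodine mean did not overlap, at 0.22 to 0.34 in WT and 0.46 to 1.11 in KO2. There Adipoq, Cfd and Plin1 differed by 1.08, 0.92 and 0.40, and Lep and Retn by −0.25 and −0.01. Normal-diet means overlapped, at 0.85 to 2.40 in WT and 0.34 to 2.44 in KO2. Their part in the results was likewise not tested.

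Muscle and brown fat markers varied between arrays of 1 group, and 0 of 12 and 0 of 6 were called between genotypes on either diet. The mean of the muscle markers ran from −3.19 to 3.72 in WT and −4.09 to 5.26 in KO2 on the normal diet. KO2 replicate 4 was highest, and it also held the highest levels of Pfkm (4.42), Aldoa (8.72), Hk2 (2.25) and Slc16a3 (0.45) among the 10 arrays. Brown fat markers were lowest on KO2 replicate 1 (1.17 against 2.76 to 5.02 on the other 9), and this array had the lowest Slc16a1 (−0.84) and Hk2 (0.01). Without KO2 replicate 4 the normal-diet count was 2 of 37 (5.41%, against 3.77% of all genes). Without KO2 replicate 1 it was 1 (2.7% against 0.892%). Eno2 and Bnip3 of these arrays lay within the range of the other KO2 arrays, except that Bnip3 on replicate 4 was the lowest (3.67).

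Between the diets 23 of 37 genes were called in WT (62.2%; 6 higher and 17 lower on low iodine) and 22 in KO2 (59.5%; 4 higher and 18 lower). Of all genes, 75.9% (39.4% higher, 36.5% lower) and 74.4% (37.5% and 36.9%) were called. The counts and splits of the 37 moved with the scaling, to 31 (2 higher, 29 lower) in WT and 30 (2 and 28) in KO2 with median scaling and to 25 (12 and 13) and 28 (12 and 16) with quantile normalization. Against all genes, the members' share was lower in both genotypes as first given, and higher with median scaling (83.8% against 77.6% in WT, 81.1% against 75.8% in KO2) and, in KO2, with quantile normalization (75.7% against 74.2%). Enzymes made up most of the lower genes, with 10 of 17 in WT and 11 of 17 in KO2. The low-iodine minus normal difference in WT and in KO2 was −2.90 and −2.53 for Gpi1 and −2.33 and −2.71 for Ldha. It was −2.32 and −3.11 for Car9, which was well above background on only 3 of 8 low-iodine arrays. Adm differed by 1.67 and 1.87 and Eno2 by 1.00 and 1.56; all 5 genes passed the threshold in both genotypes. The diets share no slide or scanner, so these values cannot be told apart from a difference between the array sets.

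Different probes of 1 gene disagreed more between the diets than between the genotypes. Epas1 is the clearest case: by the probe used here it stood at 5.14 in WT on the normal diet and 5.10 on low iodine, and by its other probe at −4.90 and 3.42. Hk1 (−1.06 to 3.40 over 6 probes), Pfkfb3 (−0.07 to 4.16) and Pfkp (1.75 and 4.29) disagreed too. Of the 13 members with several usable probes, the diet difference in WT spanned over 1 between probes in 5 (38.5%), against 71.2% of 6464 genes. For KO2 against WT 0 of 13 spanned that much on either diet. The diet values are therefore given as a description of these arrays.

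**Figure D5:**
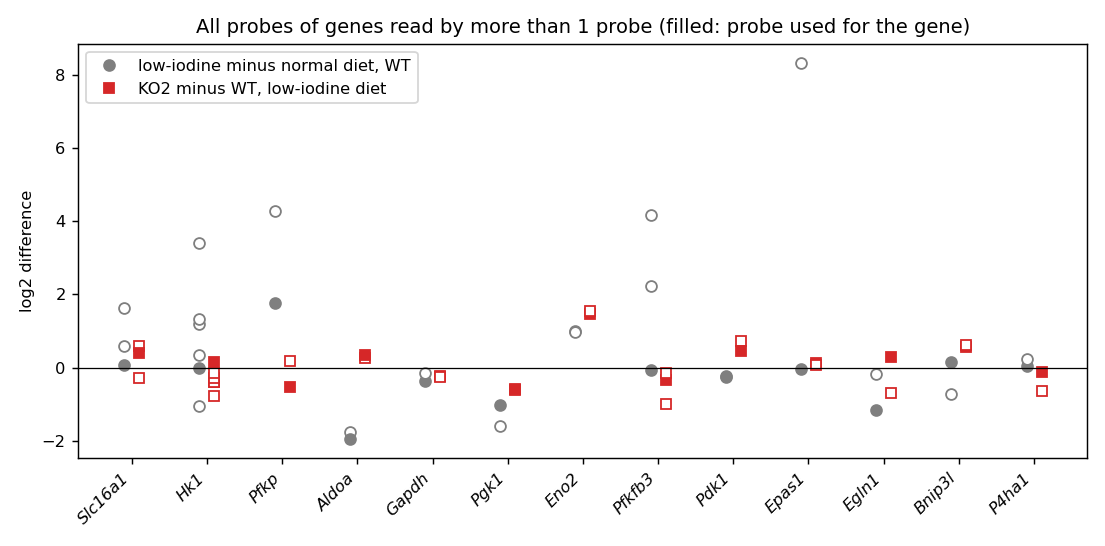
Log2 difference (y axis) of every probe for the 13 genes with several usable probes; grey circles are low-iodine minus normal diet in WT and red squares KO2 minus WT on low iodine, with the probe used for the gene filled. Grey circles of 1 gene lie up to 8.36 apart (Epas1), and red squares at most 0.99 apart.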

How the data were processed

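Thyroid RNA of 18 mice was amplified (NuGEN Ovation Pico) and labelled with Cy3, per the labels' protocols, and read on Agilent arrays with Feature Extraction version 12, per the submitters' processing notes. The authors deposited scanner files; the value used is the processed signal, which per the file headers is linear intensity after background subtraction, and the deposited summary table held the same intensities. Releases were 12.0.0.7 on the normal diet and 12.0.3.1 on low iodine, per the file headers.

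From these, control and outlier-flagged spots were removed (82 probes left out) and log2 signal was taken relative to each array's 75th percentile. Probes were named by accession through the GRCm38.p6 gene table (28223 of 41174 matched 1 gene, 12951 none) and kept if well above background on at least 4 of 18 arrays. The brightest of a gene's probes was used. limma 3.58.1 (R 4.3.3) was fitted to 4 group means over 18 arrays, checked on simulated data, with Benjamini-Hochberg adjustment over 17928 genes. The 37 genes and all lists were chosen with earlier results of these data known. Named in full are members called in a genotype contrast, and up to 6 called genes of the added list per contrast; 2 of the latter are not reported here. Other genes, Vegfa among them, were named after their values were seen. Replicate numbers were not taken as pairs (correlations of deviations between arrays of the same number −0.04 to 0.32). Arrays of different numbers were not compared in this way, so pairing was not tested. Replicate numbers gave only an alternative, as did other scalings, background, filters, probes, blocks and omitted arrays. Slides are as the headers give them.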

Additional observations from a re-analysis of the deposited data

Results flagged for a closer look

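Within groups, 148 sets of member levels were examined for an array whose gap to the nearest other exceeded Dixon's 95% critical value, and 6 exceeded it; chance alone flags about 1 in 20, or 7.4. On low iodine WT replicate 2 stood apart for Ankrd37 (−0.45, the others −1.85 to −1.61) and for Ndrg1 (1.22, the others 1.45 to 1.47). On the normal diet KO2 replicate 4 stood apart for Adm (−0.17, the others 0.13 to 0.25) and Hif1a (3.07, the others 2.02 to 2.29). KO2 replicate 2 stood apart for P4ha1 (0.56, the others −0.08 to 0.10), and WT replicate 4 for Gapdh (5.34, the others 5.62 to 5.71). No genotype effect of the 37 genes passed the test of a difference between the diets.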

How the results depend on the processing

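No direction of a called gene reversed under the 31 alternatives run for each. On the normal diet 2 of the 37 genes were called (5.41%, against 1.39% of all genes). The count became 0 with median scaling, 0 without scaling and 0 with the compared groups fitted alone. Of all genes 1.12%, 1.66% and 0.0167% were then called. The count was 1 (2.7%) with quantile normalization, slide as a block or a replicate block, against 1.03%, 1.09% and 0.892% of all genes. On low iodine the count of 7 (18.9%, against 15.0% of all genes) became 11 with quantile normalization (29.7% against 21.4%). It was 4 without scaling (10.8% against 10.6%) and 3 with the compared groups alone (8.11% against 9.33%). For the interaction the count of 0 (against 1.22% of all genes) became 3 with quantile normalization (8.11% against 3.97%). It was 1 (2.7% or 2.78%) with median scaling, the filter on all arrays, the mean of all probes, a replicate block or array weights. Of all genes 0.502%, 1.99%, 1.33%, 1.02% and 2.88% were then called. Leaving out 1 array gave 1 to 2 genes on the normal diet, 4 to 9 on low iodine, 0 to 1 for the interaction, 21 to 23 between diets in WT and 21 to 22 in KO2. The low-iodine count was 4 (10.8%, against 11.1% to 13.0% of all genes) without WT replicate 1, WT replicate 3, KO2 replicate 1 or KO2 replicate 4. It was 9 without normal-diet WT replicate 1 (24.3% against 14.7%). The normal-diet count was 1 (2.7%, against 0.686% to 1.2% of all genes) without WT replicate 1, 2, 4 or 5, KO2 replicate 1, 3 or 5, or low-iodine WT replicate 3.

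The low-iodine mean difference of the enzymes moved from 0.16 to 0.31 with median scaling and −0.10 without scaling, and that of the hypoxia targets from 0.38 to 0.53, 0.11 and, with the filter on all arrays, which drops Car9, 0.49. The normal-diet target difference was 0.015 without scaling. Without scaling the normal-diet calls over all genes split 28 higher and 269 lower, against 92 and 157. The replicate block gave 1, 6 and 1 members called on the normal diet, on low iodine and for the interaction. These are 2.7%, 16.2% and 2.7%, against 0.892%, 15.4% and 1.02% of all genes. Over all genes, the normal-diet count of 249 was 992 with array weights, 401 with an intensity trend, 160 with a replicate block, 3 with the compared groups alone and 123 to 675 with 1 array left out; the low-iodine count of 2687 was 1642 with median scaling and 1673 with the compared groups alone, and the interaction count of 219 was 90 with median scaling, 131 without scaling, 336 with an intensity trend, 516 with array weights, 712 with quantile normalization and 131 to 230 with 1 array left out. The causes of these moves were not tested. The planned background correction on the mean signal was not run. The median signal was used, an alternative chosen after seeing the data. It gave 2 on the normal diet (5.41%, against 1.48% of all genes) and 7 on low iodine (18.9% against 12.9%).

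With 4 or 5 arrays a group, small differences could not be called, and Car9 on low iodine rests on signals near background.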
